A study of Mus musculus with 10 samples.

Results

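Induced oligodendrocyte progenitor cells (iOPC) at passage 15 were set against primary oligodendrocyte progenitor cells (OPC) across the transcriptome. The iOPC had been made from pericytes, the contractile cells that wrap small blood vessels. A probe entered if it carried 1 gene symbol and was detected (detection p-value under 0.01 against the array's negative controls) on at least 2 of the 4 arrays. Of 25697 probes, 12512 met this rule, and keeping the brightest probe of each gene left 8975 genes of the 16593 gene symbols on the array. A gene detected on both arrays of a single heading also passes, so a gene that passed through its high side alone was bound to differ. The counts below therefore describe the genes tested.

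The study hybridised RNA of mouse cells of the strain C57BL/6 to 10 Illumina bead arrays, on which oligonucleotide-coated beads give a brightness per transcript. There were 2 arrays each of iOPC after 5, 15 and 25 passages, of primary OPC and of pericytes (PC). Titles call the OPC samples progenitors, whereas the design text and the cell type field speak of oligodendrocytes. Labels give neither age nor sex, nor the agents used for induction beyond the PC2FiOPC heading, and they do not say whether the 2 replicates were separate cultures, so p-values measure the spread between these arrays alone. A second amplification kit appears in the protocol text, for cells sorted after transplantation, and the labels tie no array to it. In each bulk sample, fewer cells of a type and less RNA per cell cannot be told apart.

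Non-normalized signals were deposited in one table and log2 values normalised by the authors in another, and the headings of these 2 tables disagree. Each array had between 45.7% and 49.2% of its probes detected, with mean signals of 381.6 and 373.9 on the passage 15 arrays and 333.4 and 374.2 on the OPC arrays. Over 9403 probes detected on all 10 arrays, the signal columns headed iOPC passage 15 correlated at a mean Pearson r of 0.981 with the value columns headed OPC, and at 0.843 with the value columns of their own heading. The signal columns headed OPC had their highest mean, 0.878, with the value columns of passage 25, and means of 0.862 with passage 15 and 0.847 with OPC. Their highest single r was 0.891, with a value column of passage 5. The PC columns matched at 0.982. These are correlations across probes and are given as a description. Replicates stood at 0.997 (iOPC passage 15) and 0.996 (OPC) in the signal table, and at 0.987 and 0.995 in the value table. Within the signal table, iOPC passage 5 correlated at 0.969 with OPC and at 0.880 with iOPC passage 15. For iOPC passage 25 these were 0.9365 and 0.834. Within the value table, iOPC passage 5 correlated at 0.821 with OPC and at 0.928 with iOPC passage 15. For iOPC passage 25 these were 0.850 and 0.9825. The cause of the disagreement was not tested. Nothing in the labels settles which table carries the right headings, so no column was reassigned, and the direction of a change is given from each table as headed.

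**Figure D1:**
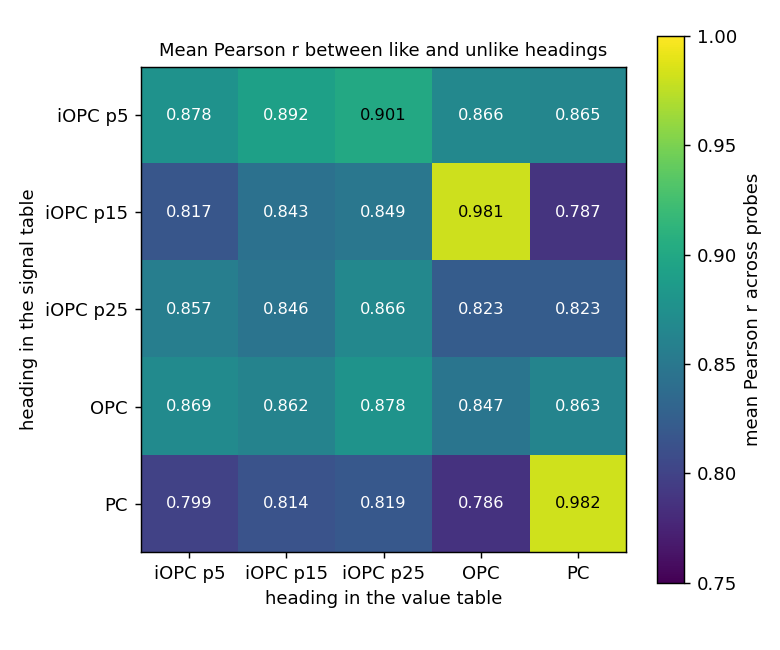
Mean Pearson correlation across 9403 probes between the columns of the signal table (rows) and those of the value table (columns), by heading, with 2 arrays per heading. The PC cell (0.982) and the cell of signal iOPC passage 15 against value OPC (0.981) are the brightest, and the like-headed cells of iOPC passage 15 (0.843) and OPC (0.847) are darker.

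OPC are dividing glial precursors that carry the growth factor receptor Pdgfra and the proteoglycan NG2 (Cspg4) and depend on the transcription factors Olig1, Olig2, Sox10 and Nkx2-2. On leaving the cell cycle they mature into oligodendrocytes, which make myelin from proteins such as Mbp and Mag. Pericytes are known for the receptor Pdgfrb, for contractile proteins and for collagens and basement membrane, so a comparison of converted with primary cells bears on lineage genes, on matrix genes and on proliferation.

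Most genes that passed in both tables changed in opposite directions. On the iOPC passage 15 arrays 3530 genes (39.3% of those tested) were higher and 2943 (32.8%) lower than on the OPC arrays in the signal table, at a limma adjusted p under 0.05. The value table gave 2335 higher (26.0%) and 2333 lower (26.0%). Of these, 3101 (34.6%) were called with opposite signs, 1650 (18.4%) of them higher in the signal table and 1451 (16.2%) lower. The same sign was called for 671 genes (7.48%), of which 369 (4.11%) were higher and 302 (3.36%) lower in iOPC passage 15. At 2-fold or more in both tables, 25 genes (0.279%) were higher and 72 (0.802%) lower, against 1470 (16.4%) of opposite sign. A further 2701 genes (30.1%) were called in the signal table alone, 896 (9.98%) in the value table alone and 1606 (17.9%) in neither. The median change over all genes was 0.0696 and -0.00192 log2 units. Without OPC replicate 1 or 2 or iOPC passage 15 replicate 1 or 2, the genes higher in both numbered 166, 180, 229 and 197, and those lower in both 170, 179, 201 and 189. Both tables are headed for the same samples, but like-headed columns did not hold the same profile, so a shared sign is no replication. Signal iOPC passage 15 and value OPC columns had close levels (median gap 0.297 log2 units over the 671 genes of the same sign). Between the 2 tables' iOPC passage 15 columns that gap was 1.03. For 594 of the 671, both close levels lay between signal OPC and value iOPC passage 15. A shared sign thus often sets 1 profile, headed iOPC in one table and OPC in the other, between 2 others.

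**Figure D2:**
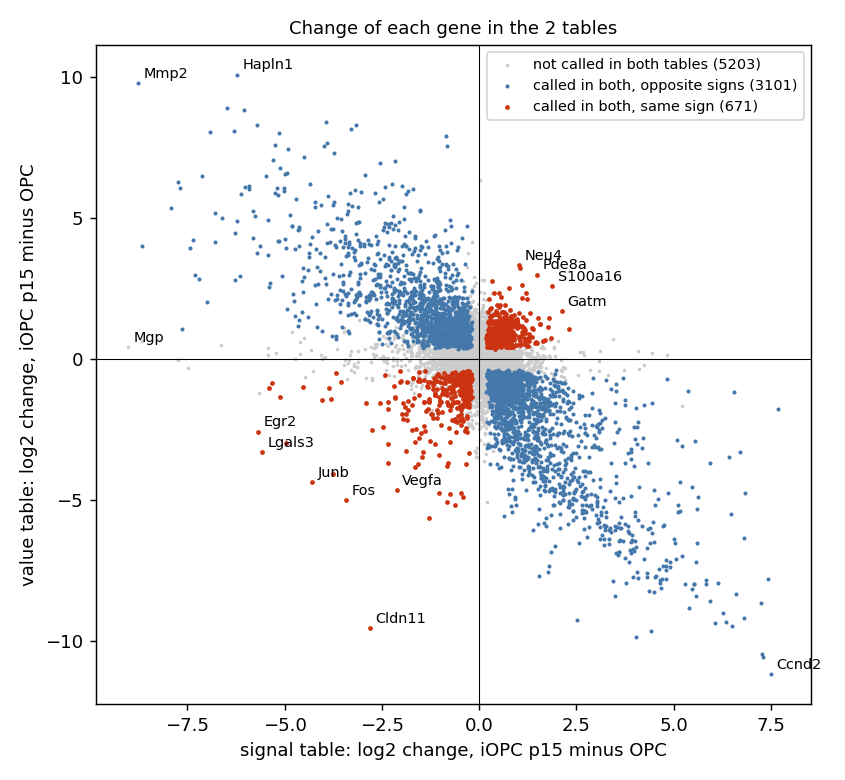
Log2 change of each of 8975 genes, iOPC passage 15 minus OPC, in the signal table (horizontal) and in the value table (vertical). Most coloured points lie in the 2 quadrants of opposite sign (3101 genes, Ccnd2 and Mmp2 at the far ends), with 671 genes of the same sign; for a gene below background on one side the horizontal value is the fitted change and not a bound.

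Below, signal table values come before value table values, and levels are log2. A change is iOPC passage 15 minus OPC in log2 units, or an at-least fold in the signal table where a gene was below background on both arrays of one heading. The genes named had standard errors of 0.0698 to 0.245 in the signal table and 0.124 to 0.862 in the value table. There were 2 arrays per heading, and each error pools the spread within all 5 headings. In the value table, replicates of iOPC passage 5 correlated at 0.908, against 0.987 for iOPC passage 15 and 0.995 for OPC. A value change that was not called, such as that of Cspg4 (standard error 0.754), can therefore reflect spread outside the headings compared. Named genes described as higher, lower, risen or fallen were called, with limma adjusted p up to 0.0199 and 0.0495. With 1 array of either heading left out, at least 1 such fit lost the value call of Acan, Acta2, Angpt1, Atp5o, Car14, Ccdc80, Ccnd1, Cdkn2d, Cdt1, Cxcl2, Cyp51, Dpysl5, Dusp6, Egfl7, Fdps, Fosb, Gadd45a, Hk2, Klf6, Olig2, Rrm2, Slc2a1, Top2a, Tyms and Uty (adjusted p of 0.0518 to 0.263 there), and the signal call of Ddit4, Dusp6, Fbln1 and Tm7sf2 (0.0553 to 0.107). For lists a second signal median, in brackets, sets genes below background at their bound. The number of members undetected on both signal arrays of one heading follows where it is 3 or more; these passed the filter through the other heading and had to differ. Value levels lay under that table's median of 3.29 under both headings for Acan, Angpt1, Btg2, Car14, Cxcl2 and Loxl1, all lower in both tables. Over all genes tested, 4.11% were higher and 3.36% lower in both tables. These shares stand beside every list's members of shared sign below, and in a short list a few members can lie near them.

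OPC identity genes were mostly higher on the iOPC passage 15 arrays in the signal table and lower in the value table. Of 33 genes on the list 23 were tested; 20 were higher and 3 lower in the signal table (median 2.19, [2.19], 5 undetected in OPC), with 2 higher and 10 lower in the value table (median -1.27). Pdgfra, the growth factor receptor of OPC, had signal levels of 12.80 and 12.72 on the iOPC passage 15 arrays, against 11.29 and 11.35 on the OPC arrays (change 1.44 ± 0.08 SE). Its value levels were 11.33 and 11.45 in the passage 15 columns, against 12.95 and 13.07 in the OPC columns (-1.62 ± 0.23 SE). The groups do not overlap in either table, and the order turns. Cspg4 was lower in the signal table, at 8.77 and 8.86 in iOPC against 9.66 and 9.43 in OPC (-0.73), and had value levels of 10.55 and 10.16 in iOPC against 9.30 and 9.29 in OPC (1.06, adjusted p = 0.27).

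The transcription factors that define the lineage followed the same reversal. Olig1 had signal levels of 13.75 and 13.66 on the iOPC passage 15 arrays, against 10.20 and 10.22 on the OPC arrays (3.50), and value levels of 11.61 and 11.85 in the passage 15 columns, against 14.07 and 13.88 in the OPC columns (-2.24). Olig2, its partner in lineage choice, had 7.99 and 8.05 in iOPC against 4.91 and 4.83 in OPC, where 1 of the 2 arrays detected it (3.15). In the value table Olig2 had 6.00 and 5.65 in iOPC against 8.29 and 8.27 in OPC (-2.46), a change that without the detection filter no longer passed (adjusted p = 0.0726). Nkx2-2, a factor of OPC differentiation, was detected on both iOPC arrays (10.93 on each) and on neither OPC array (4.25 and 4.21), which gave at least 70-fold higher, and its value change was -3.28. So the signal columns headed OPC lacked a detected level of one defining factor and held another near background, while the value columns of that heading had high levels of each. No probe carried the symbols Sox10 or Mki67. Sox2, a progenitor factor, changed by 0.75 and -1.45.

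Over the whole list of oligodendroglial transcription factors, 23 were tested: 14 were higher and 7 lower in the signal table (median 0.734, [0.597], 5 undetected in OPC), and 3 were higher and 16 lower in the value table (median -1.53). Hes5, a Notch effector, was at least 27.9-fold higher, with a value change of -7.98. Sox9, a glial factor, changed by 4.65 and -7.82, and its relative Sox8 by 3.82 and -3.33. Of the 23 tested, 3 were called with the same sign, all lower in iOPC, against 3.36% of all genes lower in both. They were Tcf4, a basic helix-loop-helix partner (-0.27 and -1.53), Hes1, a Notch effector (-2.04 and -0.83), and Id2, an inhibitor of helix-loop-helix factors (-0.40 and -0.87). The signal call of Tcf4 was lost under median scaling (adjusted p = 0.0604).

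Among surface and matrix genes of OPC, Gpr17, a receptor of cells that begin to differentiate, was higher in the signal table (11.41 and 11.30 in iOPC against 8.26 and 8.23 in OPC, change 3.11) and had near-equal value levels (12.004 and 11.997 in iOPC against 11.65 and 11.76 in OPC, change 0.30, adjusted p = 0.11). Brevican (Bcan), a proteoglycan of neural matrix, changed by 2.68 and 0.25 (adjusted p = 0.69 in the value table). Cacng4, an accessory subunit of AMPA receptors, was at least 26.7-fold higher, with a value change of -1.67 (adjusted p = 0.14). Fabp7, a fatty acid binding protein of glial precursors, changed by 5.94 and -3.69, and the matrix protein Matn4 ran the other way (-6.02 and 6.10). Neu4, a sialidase, was the list's 1 member higher in both tables: 5.36 and 5.47 in iOPC against 4.29 and 4.48 in OPC, below background there (at least 1.53-fold), and 7.83 and 7.99 in iOPC against 4.50 and 4.67 in OPC (3.32). Versican (Vcan), a proteoglycan, was its 1 member lower in both (-1.55 and -2.80).

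**Figure D3:**
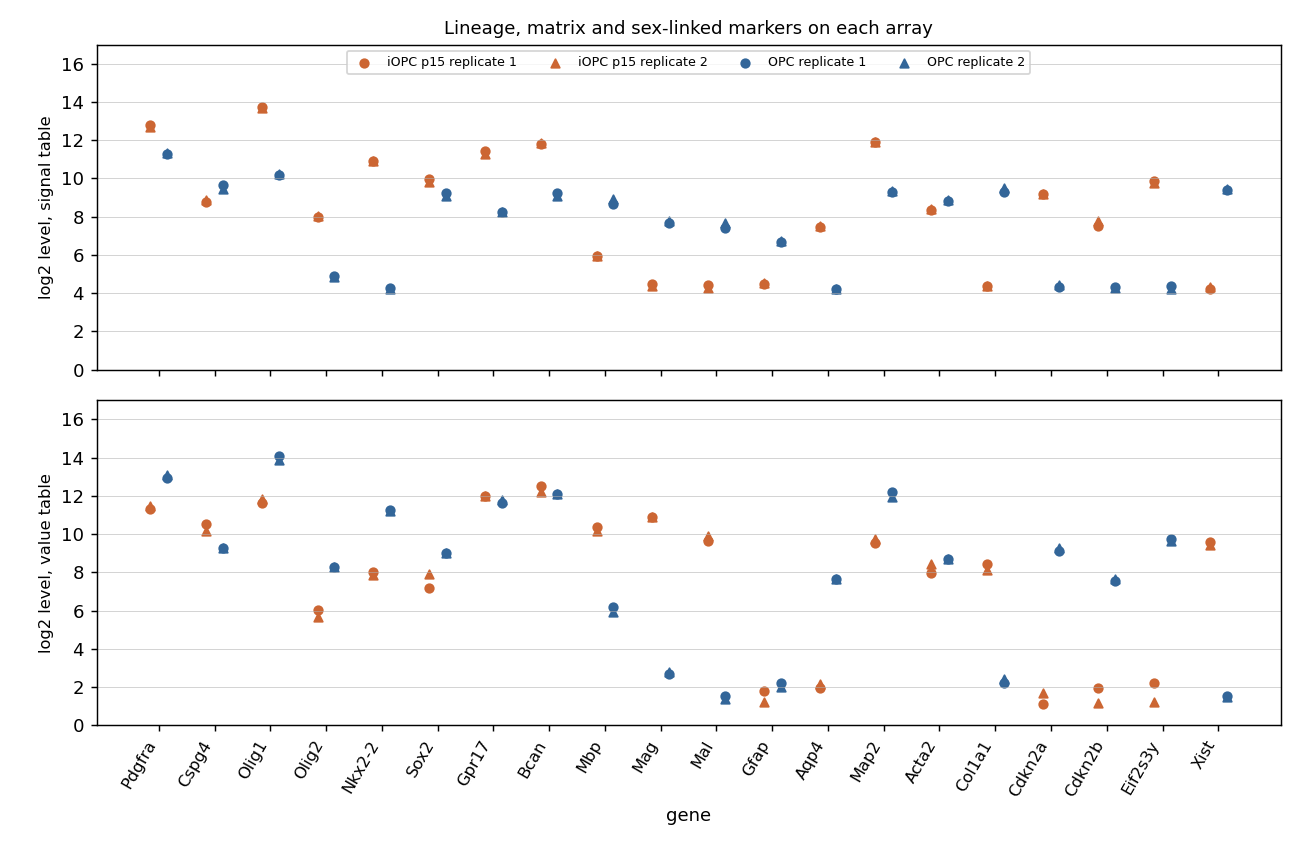
Log2 level of 20 marker genes on each array, with iOPC passage 15 (orange, left) and OPC (blue, right), replicate 1 as a circle and replicate 2 as a triangle; signal table above, value table below. Olig1, Nkx2-2, Aqp4, Cdkn2a and Eif2s3y have iOPC above OPC in the signal table and below it in the value table, and Mbp, Mag, Mal, Col1a1 and Xist the reverse.

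Genes of oligodendrocyte maturation and myelin ran against the OPC list. Of 41 genes 28 were tested; 5 were higher and 22 lower in iOPC in the signal table (median -0.892, [-0.747], 6 undetected in iOPC), with 17 higher and 3 lower in the value table (median 0.901). Mbp, a structural protein of myelin, had signal levels of 5.95 and 5.97 on the iOPC arrays, against 8.68 and 8.93 on the OPC arrays (-2.84). Its value levels were 10.37 and 10.17 in iOPC against 6.20 and 5.93 in OPC (4.21). Mag, an adhesion protein of the inner myelin layer, was not detected on either iOPC signal array and was at least 7.67-fold lower there, and in the value table it stood at 10.89 and 10.91 in iOPC against 2.66 and 2.81 in OPC (8.16). Mal, a lipid raft protein of myelin, was at least 6.69-fold lower and changed by 8.30.

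Trf, the iron carrier transferrin, changed by -6.80 and 4.15, and Cryab, a small heat shock protein, by -4.63 and 4.60. Gjc3, a glial connexin, was at least 14.7-fold lower with a value change of 3.89, and Enpp6, a choline phosphodiesterase of newly formed oligodendrocytes, changed by -4.51 and 0.76 (adjusted p = 0.3 in the value table). Claudin 11 (Cldn11), the tight junction protein of myelin, kept its sign. It had signal levels of 10.50 and 10.70 in iOPC against 13.44 and 13.38 in OPC (-2.81 ± 0.16 SE), and value levels of 1.37 and 1.49 in iOPC against 10.91 and 11.03 in OPC (-9.53 ± 0.40 SE). Car14, a carbonic anhydrase, was lower in both (at least 10.1-fold and -1.01), and Qdpr, which regenerates tetrahydrobiopterin, was higher in both (0.53 and 0.88).

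Astrocyte, neuron and Notch genes were mostly higher in iOPC in the signal table and mostly lower in the value table. Of 25, 16 and 17 tested, 4, 1 and 2 were lower in both, against 3.36% of all genes. Among 25 tested astrocyte markers 15 were higher and 8 lower in the signal table (median 0.64, [0.595], 6 undetected in OPC), and 1 was higher and 19 lower in the value table (median -3.01). Aqp4, the water channel of astrocyte endfeet, was detected on both iOPC signal arrays (7.48 and 7.49) and on neither OPC array (4.21 and 4.21), at least 6.43-fold higher, with a value change of -5.59. Gfap, the intermediate filament of astrocytes, was detected on neither iOPC signal array and was at least 3.74-fold lower, with a value change of -0.58 (adjusted p = 0.39). The glutamate transporter Slc1a3 changed by 3.91 and -3.17 and the acyl-CoA synthetase Acsbg1 by 4.70 and -7.79. Lower in both tables were connexin 43 (Gja1, -0.41 and -0.98), the sodium pump subunit Atp1b2 (-1.83 and -1.4996), clusterin (Clu, -1.66 and -3.83) and Id3, a helix-loop-helix inhibitor (-1.13 and -3.01).

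Of 16 tested neuron markers 15 were higher and 1 lower in the signal table (median 2.66, [2.59], 5 undetected in OPC), with 0 higher and 14 lower in the value table (median -4.60). Map2, a microtubule protein of dendrites that OPC also carry, had signal levels of 11.92 and 11.93 in iOPC against 9.31 and 9.37 in OPC, and value levels of 9.52 and 9.73 in iOPC against 12.18 and 11.92 in OPC. Gap43, a growth cone protein, changed by 6.13 and -7.95. Stmn3, a stathmin of neurons, was at least 13.6-fold higher with -7.58, Dcx, doublecortin of migrating neuroblasts, at least 11.7-fold higher with -6.24 (another of its probes was detected on 1 OPC array), and the vesicle protein Nsg2 changed by 4.55 and -7.69. Gad1, which makes the transmitter GABA, was the 1 member lower in both (-1.43 and -2.36). Of 29 neuron markers with a probe, 12 were detected on none of the 4 arrays, among them Rbfox3, the defining nuclear antigen of mature neurons. The part of astrocytes or neurons in these results was not tested.

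Notch signalling, in which a ligand on one cell releases an intracellular receptor fragment in its neighbour, holds OPC undifferentiated. Of 17 tested Notch genes 13 were higher and 3 lower in the signal table (median 2.32, [1.86], 6 undetected in OPC), with 1 higher and 12 lower in the value table (median -2.40). Dner, a neural ligand-like protein, had signal levels of 11.88 and 11.92 in iOPC against 4.59 and 4.74 in OPC, below background there (at least 137-fold higher), and value levels of 3.26 and 3.53 in iOPC against 12.04 and 12.06 in OPC (-8.66). The targets Hey1 (5.21 and -3.07) and Nrarp (at least 22.5-fold higher and -6.47) moved likewise. Hey2, another target, was lower in both tables, as Hes1 was (at least 4.51-fold and -1.75).

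Matrix genes were mostly lower in iOPC in the signal table and more often higher than lower in the value table. Of 22 tested fibroblast and extracellular matrix genes 4 were higher and 18 lower in iOPC in the signal table (median -2.57, [-2.49], 11 undetected in iOPC), with 12 higher and 7 lower in the value table (median 1.69). The value median was -0.24 over the members detected on all 4 signal arrays. Col1a1, a chain of collagen I, was not detected on the iOPC signal arrays (4.39 and 4.38, against 9.29 and 9.51 in OPC, at least 24.5-fold lower), and had value levels of 8.42 and 8.12 in iOPC against 2.23 and 2.39 in OPC (5.96). Lumican (Lum), which spaces collagen fibrils, was at least 145-fold lower and changed by 6.27. Decorin (Dcn), of the same family, was at least 122-fold lower with 3.93, and biglycan (Bgn) at least 148-fold lower with 1.06.

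Col6a1, a chain of collagen VI, changed by -7.70 and 6.05, and Col3a1, of collagen III, was at least 36.6-fold lower with 8.29. Thbs2, a thrombospondin, was at least 49.1-fold lower with 8.84, and Pcolce, which speeds procollagen processing, at least 109-fold lower with 8.06. Mmp2, a gelatinase, had signal levels of 4.41 and 4.61 in iOPC, below background, against 13.36 and 13.21 in OPC (at least 361-fold lower). In the value table it had 13.26 and 13.00 in iOPC against 3.00 and 3.70 in OPC (9.78). Members lower in both tables were fibulin 1 (Fbln1, -0.46 and -0.72, the value call lost when its probes were averaged, adjusted p = 0.147), the lysyl oxidase relative Loxl1 (at least 1.73-fold and -1.26), the microfibril protein Mfap2 (-0.67 and -1.52) and Ccdc80, a secreted matrix protein detected on 1 of the 2 iOPC signal arrays (-1.86 and -2.16).

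Among 16 tested genes of cartilage-type matrix, 2 were higher and 13 lower in the signal table (median -4.69, [-4.58], 7 undetected in iOPC), with 8 higher and 4 lower in the value table (median 1.10). Col2a1, the collagen of cartilage, was at least 174-fold lower in iOPC in the signal table, where OPC had 12.24 and 12.22. Its value levels overlapped at 2.44 and 1.93 in iOPC against 2.15 and 2.30 in OPC (-0.04, adjusted p = 0.9). Neither value heading therefore held the high Col2a1 level of the signal arrays headed OPC, and neither did the PC arrays (4.34 and 4.33, not detected). Hapln1, which links hyaluronan to proteoglycans, was at least 52.2-fold lower with 10.08, Prelp at least 114-fold lower with 4.22, and Col9a2, a chain of collagen IX, changed by -7.00 and 2.03. Lower in both tables were aggrecan (Acan, at least 27.2-fold and -0.83) and Chil1, a chitinase-like protein (6.59 and 6.51 in iOPC against 11.51 and 11.54 in OPC, then 3.84 and 3.48 in iOPC against 6.49 and 6.77 in OPC).

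Basement membrane is the sheet of laminin and collagen IV in which pericytes sit. Of its 14 tested genes 1 was higher and 13 lower in the signal table (median -2.84, [-2.78], 3 undetected in iOPC), with 11 higher and 2 lower in the value table (median 2.16). Col4a2, of collagen IV, was at least 17.1-fold lower with 6.19, perlecan (Hspg2) changed by -4.63 and 4.02, and nidogen 2 (Nid2) by -4.63 and 4.67. Col18a1, of collagen XVIII, changed by -4.31 and 0.32 (adjusted p = 0.16). Nidogen 1 (Nid1) was lower in both (-0.79 and -3.70), at 6.31 and 6.23 in iOPC against 7.13 and 6.98 in OPC, and at 1.68 and 2.84 in iOPC against 5.98 and 5.94 in OPC.

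**Figure D4:**
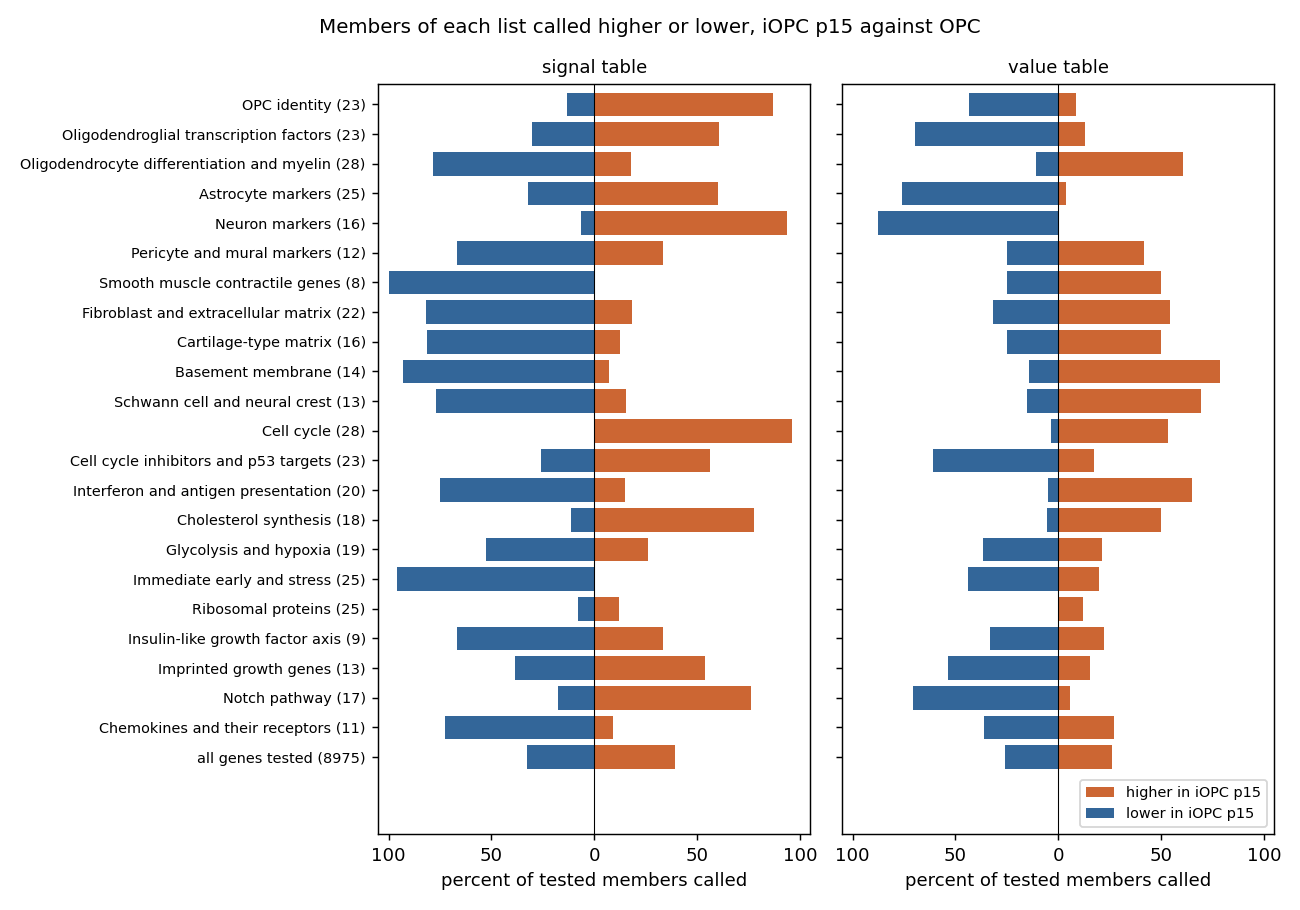
Percent of the tested members of each list called higher (orange) or lower (blue) in iOPC passage 15 than in OPC, in the signal table and in the value table, with the number tested in brackets and all genes in the last row. Lineage, neural, Notch, matrix and interferon lists turn over between the tables, while cell cycle and cholesterol genes lean to higher in both and immediate early genes to lower in both.

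Markers of mural and contractile cells were mixed. Pdgfrb, the pericyte receptor, was detected on 0 of the 2 iOPC signal arrays and on 1 of the 2 OPC arrays and was not tested. Of 12 tested pericyte and mural genes 4 were higher and 8 lower in the signal table (median -0.865, [-0.556], 5 undetected in iOPC), with 5 higher and 3 lower in the value table (median 0.574). The adhesion molecule Mcam changed by -4.38 and 3.77, the ectoenzyme Nt5e by -2.82 and 2.10, and the receptor Notch3 by 3.04 and -5.79. Foxc1, a forkhead factor, was at least 13.9-fold lower with 2.12, and Angpt1, a ligand that steadies vessels, was lower in both (at least 1.31-fold and -1.02).

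Of the smooth muscle contractile genes 8 were tested, with 0 higher and 8 lower in the signal table (median -1.25, [-1.25]), with 4 higher and 2 lower in the value table (median 0.771). Smooth muscle actin (Acta2) had 8.36 and 8.41 in iOPC against 8.84 and 8.87 in OPC (-0.47), and 7.94 and 8.41 in iOPC against 8.70 and 8.68 in OPC (-0.51), well below the 11.19 and 11.21 of the PC signal arrays. The kinase Mylk was lower in both (-2.48 and -2.42). Tropomyosin Tpm1 (-1.58 and 0.87) and smoothelin (Smtn, -1.51 and 1.33) had opposite signs, and caldesmon (Cald1) changed by -1.38 and 0.67 (adjusted p = 0.059).

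Other cell types that such cultures could hold were searched by their markers. Of 20 microglial markers with a probe, 19 were detected on none of the 4 arrays, including Cx3cr1, P2ry12 and Aif1. The exception, the receptor Cd14, was found on both OPC signal arrays (9.68 and 9.64) and on neither iOPC array (4.27 and 4.21), at least 29.4-fold lower, with a value change of 0.13 (adjusted p = 0.69). Of 18 endothelial markers with a probe, 12 were on none, with Pecam1, Cdh5 and Kdr among them. Of the 5 tested, 1 was higher and 4 lower in the signal table (median -0.753, [-0.353], 3 undetected in iOPC), with 1 higher and 2 lower in the value table (median -0.284). Flt1, a VEGF receptor, changed by 1.95 and -6.62, endoglin (Eng) was at least 1.13-fold lower with 2.87, and Egfl7, a secreted endothelial factor, was lower in both (-1.16 and -0.66).

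Schwann cells, the myelinating glia of peripheral nerve, share Mbp and Mag with oligodendrocytes. Of 13 tested Schwann and neural crest genes 2 were higher and 10 lower in the signal table (median -2.78, [-2.22], 5 undetected in iOPC), with 9 higher and 2 lower in the value table (median 1.70). The crest factors Tfap2a (at least 21-fold lower and 7.43) and Tfap2b (at least 11.5-fold lower and 8.38) were also detected on the PC arrays. The part of these cell types in the results was not tested.

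Proliferation genes were the list with the most members higher in iOPC in both tables. Of 28 tested cell cycle genes 27 were higher and 0 lower in the signal table (median 0.857, [0.857]), 15 higher and 1 lower in the value table (median 0.566), and 14 higher in both, against 4.11% of all genes. The members were Mcm5, Rrm2, Tyms and Cdt1, which act in DNA replication, and Ccna2, Cdc20, Bub1b, Plk1, Top2a, Birc5, Cenpa, Kif11, Tpx2 and Ube2c, which act from chromosome assembly to mitotic exit. Leaving out 1 array at a time, 10 to 12 of them stayed called in both. The limit given above for shared signs applies to these genes and to every shared sign reported here. Ube2c, the enzyme that tags mitotic proteins for destruction, had 6.89 and 7.35 in iOPC against 5.72 and 5.88 in OPC (1.32 ± 0.14 SE), and 7.21 and 6.99 in iOPC against 5.38 and 5.58 in OPC (1.62 ± 0.32 SE). Its iOPC arrays lay above its OPC arrays in both tables, a condition for its place among the 10 largest shared rises.

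The mitotic kinase Plk1 had signal levels of 8.88 and 8.95 in iOPC against 8.15 and 8.11 in OPC (0.79), and value levels of 10.77 and 11.17 in iOPC against 9.21 and 9.28 in OPC (1.72). Cdc20, which activates the anaphase-promoting complex, changed by 0.83 and 1.35, and Cenpa, the centromeric histone, by 0.81 and 1.15. Spindle genes moved by similar amounts, the motor Kif11 by 1.17 and 0.92 and the assembly factor Tpx2 by 0.82 and 1.46. Cyclin A2 (Ccna2) changed by 0.98 and 1.36, survivin (Birc5) by 0.54 and 1.43, topoisomerase Top2a by 0.71 and 0.64 and the checkpoint kinase Bub1b by 0.49 and 0.71. Among replication genes Mcm5, of the helicase, changed by 1.35 and 0.79, thymidylate synthase (Tyms) by 0.84 and 1.15, the loading factor Cdt1 by 0.87 and 0.70 and ribonucleotide reductase (Rrm2) by 1.27 and 0.46. The loading factor Cdc6 (1.57 and 0.08, adjusted p = 0.65) and Mcm2 (1.32 and -0.34, adjusted p = 0.12) rose in the signal table alone.

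Many mitotic genes carry CCAAT boxes, bound by NF-Y, and a TTTGAA element through which repressor complexes act in resting cells. RefSeq promoter windows (build GRCm38.p6, 250 bases before to 50 after the start) were matched for 12 of the 14 genes higher in both tables. A gene counted if any of its windows matched, whereas the share over all windows counts each window singly. The 2 kinds of share are therefore not like for like. CCAAT, on either strand, was in 9 of the 12 genes (75.0%), in 17 of 23 tested cell cycle genes with a window (73.9%) and in 37.4% of all 32851 windows. TTTGAA, on either strand, was in 7 (58.3%), against 43.5% of the tested cell cycle genes and 17.9% of all windows, and both strings of letters were in the same 7 (58.3%), against 43.5% and 6.95%. A match describes the letters and is neither a site nor a cause. The windows of 4 genes with both are printed 5′ to 3′ on the gene's strand, with each match of either strand in capitals, since they are members that moved together in both tables: Ube2c at chr2:164769679-164769978 (plus strand), Plk1 at chr7:122159185-122159484 (plus), Cdc20 at chr4:118437294-118437593 (minus) and Cenpa at chr5:30666636-30666935 (plus). In Ube2c a CCAAT and its reverse complement overlap.
Ube2c: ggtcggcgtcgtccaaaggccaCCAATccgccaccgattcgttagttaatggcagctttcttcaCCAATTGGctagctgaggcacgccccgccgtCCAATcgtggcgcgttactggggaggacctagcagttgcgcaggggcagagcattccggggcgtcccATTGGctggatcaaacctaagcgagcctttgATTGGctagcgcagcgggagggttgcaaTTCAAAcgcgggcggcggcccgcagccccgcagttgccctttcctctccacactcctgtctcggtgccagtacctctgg
Plk1: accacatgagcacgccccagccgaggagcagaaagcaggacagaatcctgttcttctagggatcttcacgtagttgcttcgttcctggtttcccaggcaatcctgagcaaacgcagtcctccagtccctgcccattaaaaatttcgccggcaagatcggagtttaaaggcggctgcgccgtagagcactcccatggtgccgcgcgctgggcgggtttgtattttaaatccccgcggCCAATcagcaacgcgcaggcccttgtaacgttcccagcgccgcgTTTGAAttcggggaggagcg
Cdc20: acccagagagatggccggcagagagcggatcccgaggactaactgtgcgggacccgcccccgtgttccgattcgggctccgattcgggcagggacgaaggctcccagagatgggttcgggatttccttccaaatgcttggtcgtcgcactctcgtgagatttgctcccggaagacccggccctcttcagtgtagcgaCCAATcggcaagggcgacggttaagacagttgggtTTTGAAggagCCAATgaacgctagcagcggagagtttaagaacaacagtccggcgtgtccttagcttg
Cenpa: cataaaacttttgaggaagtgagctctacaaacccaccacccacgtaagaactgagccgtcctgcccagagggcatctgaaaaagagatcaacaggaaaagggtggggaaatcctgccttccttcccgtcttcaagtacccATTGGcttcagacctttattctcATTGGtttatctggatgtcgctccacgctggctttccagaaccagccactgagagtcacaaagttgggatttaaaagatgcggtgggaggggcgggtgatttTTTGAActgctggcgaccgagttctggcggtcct

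**Figure D5:**
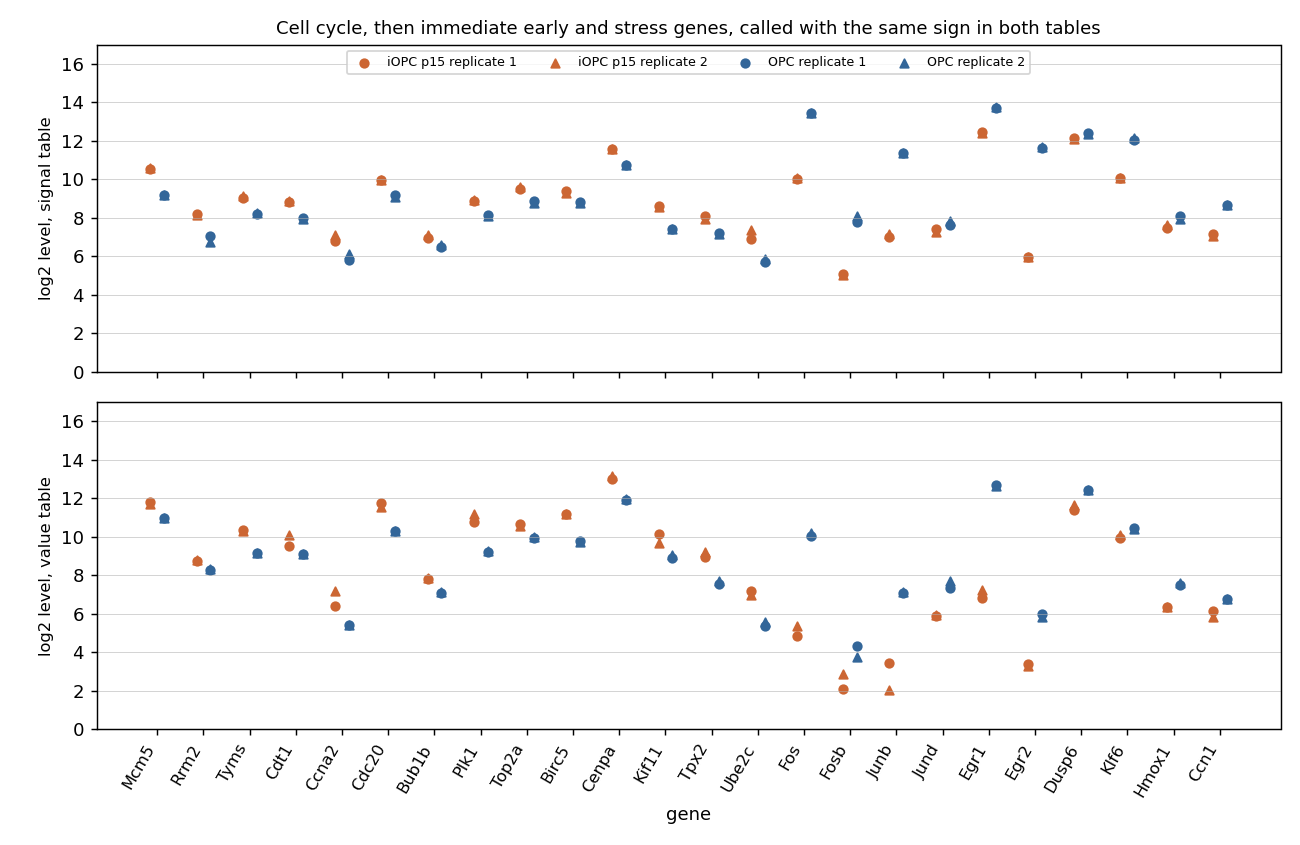
Log2 level on each array of the 14 cell cycle genes and the 10 immediate early and stress genes called with the same sign in both tables, drawn as in the plot of markers. From Mcm5 to Ube2c the iOPC arrays (orange) lie above the OPC arrays (blue), and from Fos to Ccn1 below them, in both tables; the value change of Klf6 turns when its probes are averaged.

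D cyclins, which start the cycle, split. Ccnd1 was higher in both tables (12.94 and 12.97 in iOPC against 11.46 and 11.53 in OPC, change 1.46, then 13.80 and 13.71 in iOPC against 13.10 and 13.17 in OPC, change 0.62), although its value call was lost when its probes were averaged (adjusted p = 0.167). Ccnd2 gave the largest difference of the value table, with signal levels of 13.07 and 13.14 in iOPC against 5.78 and 5.41 in OPC (7.51), and value levels of 1.51 and 3.07 in iOPC against 13.46 and 13.46 in OPC (-11.17). Ccnd3 changed by 0.36 and 0.51 (adjusted p = 0.057 in the value table).

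Inhibitors of the cycle and p53 targets were mostly higher in iOPC in the signal table (13 of 23 tested, 6 lower, median 0.923, [0.808], 3 undetected in OPC) and lower in the value table (14, with 4 higher, median -0.908). Cdkn2a, the locus of p16 and ARF, was detected on both iOPC signal arrays (9.17 and 9.19) and on neither OPC array (4.31 and 4.43), at least 20.8-fold higher. In the value table it had 1.12 and 1.68 in iOPC against 9.11 and 9.29 in OPC (-7.80). Its neighbour Cdkn2b (p15) was at least 7.13-fold higher with -6.05. Cdkn1c (p57), an imprinted inhibitor, ran the other way (-3.34 and 2.98), as did Gadd45b, a stress gene (at least 6.56-fold lower and 1.68). The inhibitor Cdkn2d (p19) was higher in both (0.65 and 1.08), and lower in both were the death receptor Fas (-1.67 and -1.37), the growth arrest gene Gadd45a (-1.08 and -0.57) and the antiproliferative gene Btg2 (-1.85 and -0.83).

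Cholesterol synthesis, which supplies growing and myelinating membranes, also leaned to higher in both tables. Of 18 tested genes 14 were higher and 2 lower in the signal table (median 0.684, [0.684]), 9 higher and 1 lower in the value table (median 0.771), and 5 higher in both, against 4.11% of all genes. Of these 5, 3 stayed called in both in each fit with 1 array left out, since Fdps lost its value call in all 4 such fits, Cyp51 in 3 and Tm7sf2 its signal call in 1. Fdps, which makes farnesyl diphosphate, changed by 0.75 and 0.64, and the sterol enzymes Cyp51 by 0.67 and 1.01, Tm7sf2 by 0.41 and 1.58 and Sc5d by 0.64 and 1.40. Stard4, a sterol carrier, had 8.81 and 8.95 in iOPC against 8.16 and 8.17 in OPC, and 10.11 and 10.03 in iOPC against 9.19 and 9.22 in OPC. The gate enzyme Hmgcs1 rose in the signal table (1.33) and had a value change of -0.06 (adjusted p = 0.74). Opposite signs were called for Dhcr7 (1.38 and -1.63), Ebp (-1.23 and 1.91) and Hsd17b7 (-1.11 and 0.86), which act in the late steps.

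Immediate early genes, which cells switch on within minutes of a stimulus, were mostly lower in iOPC than in OPC in the signal table and more often lower than higher in the value table. Of 25 tested immediate early and stress genes 0 were higher and 24 lower in the signal table (median -1.51, [-1.47], 4 undetected in iOPC), 5 higher and 11 lower in the value table (median -0.421), and 10 lower in both, against 3.36% of all genes; 7 to 8 of the 10 stayed when 1 array was left out. Fos, a subunit of the AP-1 factor, had signal levels of 10.02 and 10.05 in iOPC against 13.45 and 13.44 in OPC (-3.41 ± 0.07 SE), and value levels of 4.83 and 5.36 in iOPC against 10.03 and 10.18 in OPC (-5.01 ± 0.23 SE). Its partner Junb had 7.02 and 7.16 in iOPC against 11.39 and 11.36 in OPC (-4.28), and 3.45 and 2.05 in iOPC against 7.08 and 7.15 in OPC (-4.36). Within each table the 2 iOPC arrays of both genes lay below the 2 OPC arrays. Both genes are among the 10 largest shared falls, for which such separation was a condition.

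Egr1, a zinc finger factor, changed by -1.28 and -5.64, with 6.83 and 7.22 in the iOPC value columns against 12.69 and 12.65 in OPC. Its relative Egr2, which also drives Schwann cell myelination, had 5.98 and 5.95 in iOPC against 11.62 and 11.69 in OPC (-5.69), and 3.42 and 3.28 in iOPC against 6.00 and 5.84 in OPC (-2.57). The AP-1 genes Fosb (-2.91 and -1.56) and Jund (-0.41 and -1.61), the matrix signal Ccn1 (-1.57 and -0.79), the heme enzyme Hmox1 (-0.45 and -1.17) and the phosphatase Dusp6 (-0.23 and -0.95) were also lower in both. The signal call of Dusp6 was lost under median scaling (adjusted p = 0.174). Klf6, a zinc finger factor, changed by -2.05 and -0.42, but by 0.189 (adjusted p = 0.34) in the value table when its 2 probes were averaged. Opposite signs were called for Ier3, a survival gene (-5.42 and 3.69), and for the factors Klf4 (-4.94 and 1.76) and Klf2 (at least 16.1-fold lower and 3.62). The CArG box, the element of the serum response factor, was in a window of 1 of 8 matched genes lower in both (Egr2). Egr2 was also the 1 match among 21 tested genes of the list with a window (4.76%). Of all windows, counted singly, 1.63% held the element.

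Across all genes, those with the largest change shared by both tables came from several pathways. Higher in iOPC were Gatm, the first enzyme of creatine synthesis (2.12 and 1.69), S100a16, a calcium-binding protein (1.89 and 2.59), Igfbp4, which binds insulin-like growth factors (1.80 and 1.47), and Pde8a, which breaks down cyclic AMP (1.496 and 2.99). Gatm had 7.59 and 7.50 in iOPC against 5.43 and 5.42 in OPC, and 7.45 and 7.98 in iOPC against 5.93 and 6.13 in OPC. The adaptor Ldb2 (1.51 and 1.44) and Dpysl5, of axon guidance (1.57 and 1.26), were each detected on 1 of the 2 OPC signal arrays. Tubb4a, a tubulin of myelinating and neural cells, changed by 1.23 and 2.14, and the mitochondrial genes Atp5o (1.57 and 1.24) and Cmc2 (1.20 and 1.39) rose as well. Ube2c completed the first 10.

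Lower in iOPC in both tables were, beside Junb, Fos, Egr2, Chil1, Cldn11 and Mylk, galectin 3 (Lgals3), Rgs4, Socs2 and Gsta4. Lgals3, a sugar-binding protein, had 5.44 and 5.28 in iOPC against 10.94 and 10.92 in OPC (-5.57), and 1.69 and 1.20 in iOPC against 4.63 and 4.86 in OPC (-3.30). Rgs4, which shortens G protein signals, changed by -2.76 and -2.52, Socs2, which damps cytokine receptors, by -2.35 and -3.68, and Gsta4, a detoxifying transferase, by -2.34 and -3.02. Genes were ranked for these shared rises and falls only if their arrays did not overlap in either table.

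Interferon and antigen presentation genes turned over as the matrix did. Of 20 tested, the signal table had 15 lower and 3 higher (median -1.2, [-0.911], 4 undetected in iOPC). For the value table these counts were 1 and 13 (median 1.06). Lower in the signal table but higher by value were 12, against 16.2% of all genes. The same sign was called for 0, against 7.48% of all genes, and among 20 genes 0 can lie near that share. Opposite signs were called for the membrane proteins Ifitm2 (-4.53 and 3.24) and Ifitm3 (-4.18 and 1.14). They were also called for the antigen-presenting molecules H2-T23 (-3.43 and 2.25) and B2m (-2.62 and 1.69). Among 11 tested chemokines 1 was higher and 8 were lower in the signal table (median -1.56, [-0.982], 7 undetected in iOPC), with 3 higher and 4 lower in the value table (median -0.633). Cxcl1, which draws neutrophils, had 4.26 and 4.32 in iOPC, below background, against 12.93 and 13.02 in OPC (at least 291-fold lower), and value levels of 2.70 and 2.06 in iOPC against 2.03 and 1.45 in OPC (0.64, adjusted p = 0.13). As with Col2a1, neither value heading held the high level of the signal arrays headed OPC.

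Ccl2, which draws monocytes, was at least 65.2-fold lower with 2.95, Ccl7, its relative, at least 45.4-fold lower with -1.20 (adjusted p = 0.055), and Cxcl5 at least 15.2-fold lower with -0.63 (adjusted p = 0.13). Cxcl2 (at least 11.1-fold and -1.45) and Cxcl14 (-0.74 and -4.78) were lower in both. In the insulin-like growth factor axis 3 of 9 tested genes were higher and 6 lower in the signal table (median -1.04, [-1.04]), with 2 higher and 3 lower in the value table (median -0.269). Its binding proteins differed among themselves: Igfbp4 was higher in both, Igfbp2 lower in both (-1.04 and -4.74), and Igfbp7 (-6.79 and 5.16) and Igfbp3 (3.09 and -3.18) had opposite signs. The receptor Igf2r, which clears IGF2, changed by -1.94 and 0.67 (adjusted p = 0.093).

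Of the imprinted growth genes 13 were tested, and 7 were higher and 5 lower in the signal table (median 0.975, [0.975]), with 2 higher and 7 lower in the value table (median -1.21). Mest, a hydrolase-like imprinted gene, changed by 5.47 and -4.53, the brain proteolipid Nnat by 3.48 and -8.39 and the adaptor Grb10, which damps growth factor receptors, by -3.26 and 5.41. For glycolysis and hypoxia 19 genes were tested, with 5 higher and 10 lower in the signal table (median -0.23, [-0.23]), with 4 higher and 7 lower in the value table (median -0.505). Vegfa, the vessel growth factor, was lower in both, at 6.96 and 6.94 in iOPC against 9.10 and 9.03 in OPC (-2.11), and at 2.47 and 1.70 in iOPC against 6.79 and 6.68 in OPC (-4.65). So were enolase 2 (Eno2, -0.61 and -2.57) and the stress gene Ddit4 (-0.23 and -1.07), whose signal call was lost under median scaling (adjusted p = 0.203). The hypoxia gene Ndrg1 (at least 21.5-fold lower and 1.66), the glucose transporter Slc2a1 (-2.26 and 0.55) and hexokinase 2 (Hk2, -1.71 and 0.65) had opposite signs. Ribosomal protein genes were mostly not called: among 25 tested, 3 were higher and 2 lower in the signal table (median 0.0673, [0.0673]), with 3 higher and 0 lower in the value table.

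Further genes were among those with the largest changes of each table. Higher in iOPC in the signal table and lower in the value table were the axonal adhesion molecule Cntn1 (7.69 and -1.76), the neural membrane protein Gpm6a (at least 111-fold and -7.78), B3gat1, which makes the HNK-1 sugar epitope (at least 115-fold and -10.56), and the brain metallothionein Mt3 (at least 123-fold and -10.46). Cntn1 had 12.59 and 12.54 in iOPC against 4.89 and 4.86 in OPC, where 1 of the 2 arrays detected it. The glutamate receptor subunit Gria2 (at least 90.4-fold and -6.36), the catenin Ctnnd2 (at least 74.6-fold and -4.76), the BDNF receptor Ntrk2 (at least 74-fold and -8.34) and the leucine-rich protein Lrrn1 (at least 77.1-fold and -9.19) followed. So did neurocan (Ncan, 4.04 and -9.83), astrotactin (Astn1, 4.43 and -9.64), the kinase Prkcb (at least 60.8-fold and -9.47), the phosphatase Nudt11 (at least 52-fold and -9.35), the neurexin ligand Nxph1 (at least 55.8-fold and -9.34) and the imprinted gene Dlk1 (2.53 and -9.23).

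Lower in iOPC in the signal table and higher in the value table were the protease inhibitor Serpina3n (-8.68 and 4.02), the matrix protein Tgfbi (at least 178-fold and 5.34), the membrane glycoprotein Gpnmb (at least 125-fold and 6.48), the lipid carrier Apod (at least 61.6-fold and 8.07) and Capn6, a calpain relative without protease activity (at least 81-fold and 8.91). Serpina3n had 5.12 and 5.11 in iOPC against 13.80 and 13.80 in OPC, and 8.27 and 8.70 in iOPC against 4.15 and 4.78 in OPC. Mgp, which keeps matrix from calcifying, was at least 354-fold lower in iOPC in the signal table and had overlapping value levels (2.55 and 1.55 in iOPC against 1.59 and 1.66 in OPC, change 0.42, adjusted p = 0.34), with 14.00 and 14.03 on the PC signal arrays. Lcn2, an iron-binding lipocalin, was at least 122-fold lower with -0.33 (adjusted p = 0.36).

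Sex-linked transcripts separate the column sets as measured. Eif2s3y, on the Y chromosome, was detected on both iOPC passage 15 signal arrays (9.89 and 9.74) and on neither OPC array (4.36 and 4.24), at least 32.3-fold higher. In the value table it had 2.19 and 1.23 in iOPC against 9.76 and 9.62 in OPC (-7.99). Xist, made from the inactive X chromosome of female cells, had 4.22 and 4.35 in iOPC, below background, against 9.40 and 9.47 in OPC (at least 25.1-fold lower), and 9.60 and 9.41 in iOPC against 1.55 and 1.47 in OPC (7.996). The Y-linked genes Kdm5d (at least 6.31-fold higher and -5.25) and Uty (at least 1.75-fold higher and -1.06) followed Eif2s3y. The PC arrays had Xist at 8.52 and 8.37, detected on both, and Eif2s3y at 4.18 and 4.18, detected on neither. In this they were like the value columns headed iOPC passage 15 and like the signal columns headed OPC. They were unlike the signal columns headed iOPC passage 15 and the value columns headed OPC. The labels do not say whether the iOPC came from the PC that were measured. Each table thus had a heading with Y-linked transcripts and another with Xist, and sex and cell type cannot be told apart in this comparison.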

How the data were processed

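RNA of 10 samples, 2 for each of 5 headings, was hybridised to Illumina bead arrays, with groups as the samples are titled. Biotin-labelled cRNA was made from total RNA, per the labels' protocols, and per the submitters' processing notes BeadStudio 3.2, RMA and lumi were used in roles not given in the sources used here. The deposited signal table gives, per the file headers, a non-normalized intensity per probe and array, with a detection p-value beside it that, per the file headers, belongs to the same probe and whose steps imply 798 negative controls. The authors' deposited value table holds log2 values with 1 set of quantiles in every column (median 3.29), so it was quantile-normalised before deposit. Its slope on the log2 signals of the PC arrays was 1.01 over 2630 probes, so its logarithms are of base 2; its background correction stays unknown, and for unlike columns the scale could not be checked.

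Signals were background-corrected from the implied negative controls with limma 3.58.1 in R 4.3.3 (offset 16), quantile-normalised and put on the log2 scale. Of 25697 probes the platform annotation named 1 gene symbol for 23978, several for 0 and none for 1719; symbols of 23962 were updated by Entrez identifier. Both tables were restricted to probes detected (p-value below 0.01) on 2 or more of the 4 arrays, so genes of the value table are those detected in the signal table. For 2515 genes with more than 1 such probe the brightest over the 4 arrays was used. Each table was fitted with lmFit and eBayes, with a mean per heading over all 10 arrays (5 residual degrees of freedom), and a gene was called at a Benjamini-Hochberg adjusted p under 0.05 over 8975 genes in a two-sided test. Where both arrays of a heading were below background, the at-least fold sets the bright mean against, per array, the higher of the lowest normalised value of a detected probe and the gene's own. Lacking detection calls, the value table gives no such bounds.

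The comparison, its members, the 26 gene lists and the tests were chosen with earlier results of these data known. The text names the 10 genes that rose most and the 10 that fell most in each table with arrays that did not overlap, the 10 with the largest shared or opposite changes in each direction, up to 4 members of each list with the largest signal change, every list member called with the same sign, and 22 markers. The shared and opposite changes were ranked only among genes whose arrays did not overlap in either table. Genes of unclear function were left out (1 gene). Alternatives were other background corrections, scaling, detection filters, probe rules, fits and left-out arrays. Tested on simulated data of 8975 genes for this comparison, the signal fit found 65 of 67 genes changed 2-fold with 3 false calls, and the value fit 28 of 67 with 6. In the simulation 67, 67 and 66 genes changed 1.5-, 2- and 4-fold, far fewer than the 72.1% and 52.0% called in the data. Its recovery need not hold for the data. The number of arrays limits the precision of both fits. Across genes, the replicate differences of the 2 headings correlated at -0.0234 in the signal table and -0.00636 in the value table. With 1 difference per heading this cannot show whether the design paired the arrays, which the labels do not state. Figures were drawn with matplotlib 3.10.9.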

Additional observations from a re-analysis of the deposited data

How the results depend on the processing

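In the signal table the number of genes higher in iOPC passage 15 ran from 2858 to 3657 and of those lower from 2309 to 2999 over 9 other settings, and in the value table from 1979 to 2592 and from 1798 to 2702 over 6. With 1 array left out they ran from 3186 to 3227 and 2688 to 2728, and from 1602 to 1926 and 1672 to 1886. Median scaling moved the signal median over all genes to 0.137 and the share of higher calls to 58.5% from 54.5%. Genes higher in both tables, 369, numbered 226 without the detection filter, 25 at 2-fold or more in both, and 166 to 229 with 1 array left out. Those lower in both, 302, numbered 72 at 2-fold or more and 170 to 201 with 1 array left out. Opposite signs, 3101, numbered 1470 at 2-fold or more. With the replicate number as a block 3524 genes were called higher and 2938 lower in the signal table, 2273 and 2302 in the value table, and 350 higher, 305 lower and 3047 of opposite sign in both. In the labels such samples share only a number. Among named genes, the value change of Klf6 reversed to 0.189 when its probes were averaged. Settings other than left-out arrays lost 4 signal calls (Ccnd3, Ddit4, Dusp6 and Tcf4, adjusted p of 0.0604 to 0.203) and the value call of 19 genes (Acan, Acta2, Angpt1, Btg2, Car14, Ccnd1, Cdt1, Dpysl5, Egfl7, Fbln1, Fdps, Fosb, Gadd45a, Hk2, Klf4, Klf6, Olig2, Rrm2 and Slc2a1, 0.05 to 0.537). List medians that changed sign were those of matrix genes in the value table (-0.24 over genes detected on all 4 arrays), endothelial markers (0.397 there in the signal table, and 0.0715 without the filter in the value table), the insulin-like growth factor axis in the value table (0.446 and 0.21 under these filters) and the single microglial gene (-0.0143 without iOPC passage 15 replicate 2). The cause was not tested. Both the headings that conflict and the 2 arrays per heading limit every direction given.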
